A study of Mus musculus with 8 samples.

Results

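The question was whether tumor MC (mast cells) and peritoneal MC differ in their response to DC101, an antibody that blocks mouse VEGF receptor 2 and stands for anti-angiogenic therapy (AAT). For each transcript cluster, the set of array probes that reads 1 transcript, the response in a compartment was the mean log2 value with DC101 minus the mean with placebo. The interaction was the tumor response minus the peritoneal response, so a positive interaction marks a response that lay higher in tumor MC. It was taken over 8 of 8 arrays and all 24111 clusters, and a cluster was called when limma's adjusted p (Benjamini-Hochberg over all clusters) was under 0.05. The words rose, fell and changed are kept for a response that passed this test within its own compartment.

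All mice were of strain C57BL/6J and carried Panc02 tumors, grown from a mouse pancreatic cancer line placed under the skin of the flank. Treatment was assigned at random at a tumor volume of 100 mm3 and was placebo or 40 mg/kg DC101. Each of the 4 groups (tumor placebo, tumor DC101, peritoneum placebo, peritoneum DC101) held 2 arrays. Cells came from tumor suspensions or from peritoneal lavage of tumor-bearing mice and were sorted with DAPI and antibodies to CD45, CD11b, CD117 (the receptor KIT) and FceRI, the IgE receptor. Age, treatment length and the number of mice behind an array are not given in the labels, nor whether tumor and lavage of 1 mouse were both used. The p-values therefore cover only the spread among these 8 arrays, which may be technical. In sorted bulk RNA, fewer cells of a type and less RNA per cell cannot be told apart. Array medians lay between 3.34 and 3.46 on the log2 scale, and the 2 arrays of a group correlated at 0.974 to 0.986 across clusters. Values are background-corrected log2 intensities without a detection call, so that sizes are uncertain where a group lies below the median cluster (3.48).

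MC are tissue-resident granulocytes that store histamine, heparin and serine proteases in granules and release them when IgE receptors are crosslinked. MC of connective tissue and of the peritoneal cavity typically hold chymases, tryptases and carboxypeptidase A, whereas MC at mucosal surfaces and in tumors take on other protease patterns with the local cytokines. Granzyme B, best known from cytotoxic lymphocytes, is a granule serine protease that MC can also make and that can cleave extracellular matrix. The peritoneal cavity also houses large resident macrophages, B cells, some T and NK cells and eosinophils, and is lined by mesothelium.

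The response to DC101 depended on the compartment for 194 of 24111 clusters (0.805% of all tested), with a positive interaction for 85 (0.353%) and a negative one for 109 (0.452%). Most of these differences lay in peritoneal MC. Of the 194, 189 had the larger response in peritoneal MC and 5 in tumor MC, and the tumor response was under 0.5 in size for 135. The 85 positive clusters had a median interaction of 2.27 (range 1.55 to 6.08), with a median response of 0.28 in tumor and −2.02 in peritoneal MC. The 109 negative clusters had a median interaction of −2.42, with a median response of −0.29 in tumor and 2.13 in peritoneal MC. The responses had opposite signs for 159 of the 194, against 49.6% of all clusters, and both reached 1 in size for 7. In all 194 the 4 differences between tumor arrays (each DC101 array minus each placebo array) lay apart from the 4 between peritoneal arrays, which held for 27.9% of all clusters. Calling clusters for a large difference by itself favours opposite signs and array differences that lie apart. Both shares therefore describe the selection and are no separate support. By annotation 173 had 1 gene symbol, and these included 156 protein-coding genes, 5 lncRNA, 5 miRNA and 3 snoRNA genes.

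Within the compartments, limma called 1105 clusters for the peritoneal response (599 rose and 506 fell, 4.58%) and 0 for the tumor response, where 1215 had an unadjusted p under 0.05. For the interaction 3160 clusters (13.1%) had an unadjusted p under 0.05. The number called depended on single arrays. It was 35 and 69 without replicate 1 and 2 of tumor placebo, 22 and 25 without those of tumor DC101, 72 and 36 without those of peritoneum placebo, and 187 and 176 without those of peritoneum DC101. Each of these fits has fewer residual degrees of freedom. Without moderation of the spread across clusters the number was 0.

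**Figure D1:**
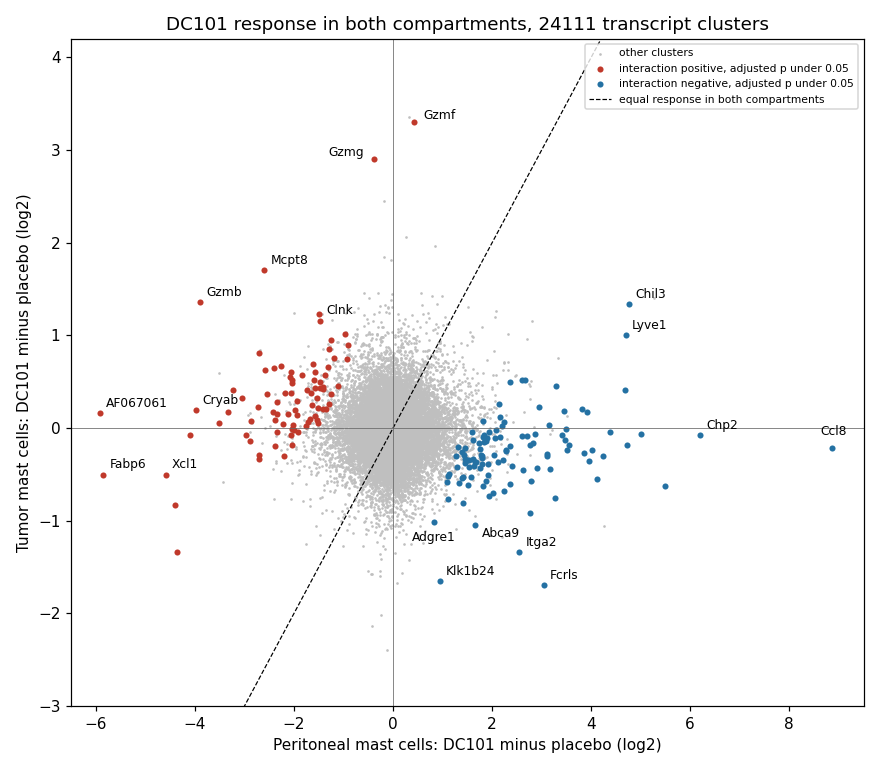
Response to DC101 in peritoneal MC (x axis) and tumor MC (y axis), both as log2 differences between DC101 and placebo means, for 24111 transcript clusters. The 85 clusters with a positive interaction (red) lie mostly left of 0 and the 109 with a negative one (blue) right of 0, and most of both lie near 0 on the tumor axis.

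Of the 7 clusters with opposite responses of at least 1 in size, 4 were higher with DC101 in tumor and lower in peritoneal MC. Gzmb, which encodes granzyme B, had log2 values of 5.09 and 5.20 in tumor placebo arrays and 6.14 and 6.88 in tumor DC101 arrays. In peritoneal MC it was at 8.73 and 8.91 with placebo and at 4.88 and 4.97 with DC101. Peritoneal placebo arrays were thus the highest of all, whereas with DC101 tumor MC lay above peritoneal MC, and none of the groups overlapped. The response was 1.36 in tumor and −3.89 in peritoneal MC, an interaction of 5.26 (SE 0.36, 95% interval 4.44 to 6.07, adjusted p = 0.00078). Mcpt8, a granule protease that is best known as a marker of mouse basophils, was at 6.83 and 6.58 in tumor placebo arrays and 8.08 and 8.74 in tumor DC101 arrays. Its peritoneal values were 9.76 and 9.84 with placebo and 6.89 and 7.50 with DC101. Again peritoneal placebo arrays were the highest, and no group overlapped its control. Its interaction was 4.31 (SE 0.40, adjusted p = 0.0052). Both genes were called in each of the 8 fits that left out 1 array, with an interaction of at least 4.89 for Gzmb and 3.98 for Mcpt8.

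Clnk, an adaptor of immunoreceptor signalling in MC and other hematopoietic cells, was at 4.65 and 4.77 with placebo and 5.60 and 6.14 with DC101 in tumor MC. In peritoneal MC it was at 4.13 and 5.03 with placebo and 2.94 and 3.29 with DC101. The interaction was 2.63 (SE 0.45, adjusted p = 0.042), and it was called in 1 of the 8 fits without 1 array. The fourth cluster, 17214892, has no symbol in the annotation. It was at 2.66 and 2.80 against 3.97 and 3.96 in tumor MC and at 6.15 and 6.34 against 4.94 and 4.55 in peritoneal MC (placebo against DC101 each), with an interaction of 2.74 (adjusted p = 0.0084). Clnk differed from Gzmb and Mcpt8 in its placebo values, which overlapped between the compartments.

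The other 3 showed the reverse, lower in tumor and higher in peritoneal MC with DC101. Fcrls, an Fc receptor-like gene of macrophages and microglia, had tumor values of 6.73 and 6.63 with placebo and 4.61 and 5.37 with DC101. Its peritoneal values were 5.25 and 5.03 with placebo and 7.83 and 8.55 with DC101. The compartments thus changed places, from tumor above peritoneum with placebo to peritoneum above tumor with DC101. The interaction was −4.74 (SE 0.44, adjusted p = 0.0052), called in all 8 fits without 1 array. Itga2, the integrin α2 chain of the collagen receptor, was at 5.43 and 4.70 against 3.30 and 4.15 in tumor MC and at 5.28 and 5.33 against 8.37 and 7.33 in peritoneal MC (placebo against DC101). Both compartments overlapped in placebo arrays, and the interaction was −3.88 (SE 0.57, adjusted p = 0.027, called in 3 of the 8 fits). Abca9, an ABC transporter linked to lipid handling, was at 3.37 and 3.94 against 2.61 and 2.59 in tumor MC and at 6.66 and 6.52 against 7.73 and 8.74 in peritoneal MC. Its interaction was −2.69 (SE 0.47, adjusted p = 0.042, called in 1 of the 8 fits), and its tumor values with DC101 lay below the median cluster.

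**Figure D2:**
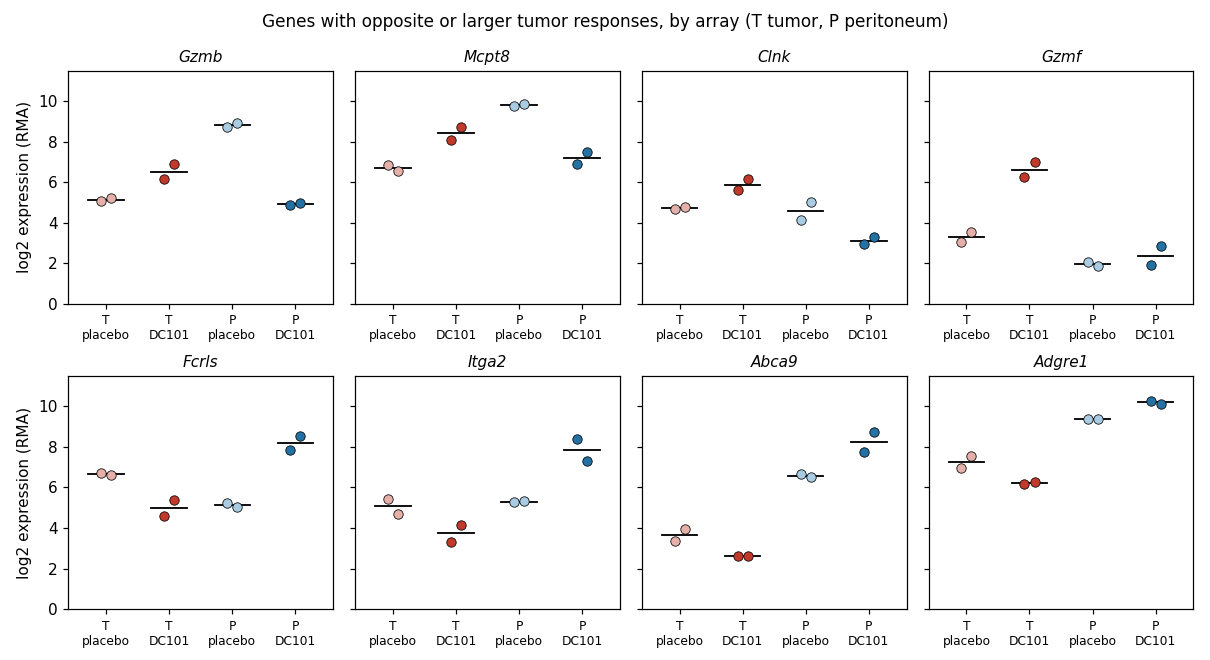
Log2 expression (y axis, RMA values) in every array of the 4 groups for 6 genes with opposite responses and 2 genes with the larger response in tumor MC, where points are arrays and lines are means of 2 arrays. Gzmb, Mcpt8 and Clnk go up from placebo to DC101 in tumor and down in peritoneum, and Fcrls, Itga2 and Abca9 do the reverse.

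The proximal promoters of the strongest genes of both patterns are shown to set sequence features beside the responses, together with that of Ccl8, the gene with the largest interaction. Each is the 200 bases before the RefSeq start (assembly GRCm38.p6), printed 5′ to 3′ on the gene's own strand. Capitals mark matches on either strand to TGANTCA for AP-1, AGATAA for GATA factors, TGTGGT for RUNX or TTCNNNGAA for STAT. The intervals are chr14:56262335-56262534 (minus strand) for Gzmb, chr14:56085198-56085397 (minus) for Mcpt8, chr3:87263525-87263724 (minus) for Fcrls, chr13:114932101-114932300 (minus) for Itga2 and chr11:82114985-82115184 (plus) for Ccl8.
Gzmb: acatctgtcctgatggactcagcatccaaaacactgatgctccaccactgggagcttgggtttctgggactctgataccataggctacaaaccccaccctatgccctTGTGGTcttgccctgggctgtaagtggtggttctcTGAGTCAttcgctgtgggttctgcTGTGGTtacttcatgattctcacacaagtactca
Mcpt8: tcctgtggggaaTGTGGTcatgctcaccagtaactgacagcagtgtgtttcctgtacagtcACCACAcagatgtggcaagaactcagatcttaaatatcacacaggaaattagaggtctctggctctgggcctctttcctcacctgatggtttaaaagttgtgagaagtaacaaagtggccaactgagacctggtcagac
Fcrls: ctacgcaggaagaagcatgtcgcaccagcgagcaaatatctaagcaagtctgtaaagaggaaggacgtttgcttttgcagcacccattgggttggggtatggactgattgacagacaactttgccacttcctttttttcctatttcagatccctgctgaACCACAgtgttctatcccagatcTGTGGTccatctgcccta
Itga2: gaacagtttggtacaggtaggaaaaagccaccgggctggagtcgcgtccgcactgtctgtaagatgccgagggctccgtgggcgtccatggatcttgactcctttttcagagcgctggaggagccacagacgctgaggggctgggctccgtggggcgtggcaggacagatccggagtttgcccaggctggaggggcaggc
Ccl8: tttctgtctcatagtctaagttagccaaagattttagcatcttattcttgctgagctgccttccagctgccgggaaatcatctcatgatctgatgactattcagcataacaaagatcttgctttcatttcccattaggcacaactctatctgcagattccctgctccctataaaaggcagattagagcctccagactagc
Gzmb held 1 AP-1 match, which starts 58 bases before the gene's start, and 2 RUNX matches, at 93 and 34 bases. Mcpt8 had 2 RUNX matches, at 188 and 139 bases, and Fcrls also had 2, at 41 and 18 bases, although its response ran the opposite way. No letters matched in Itga2 or Ccl8. Of 32851 promoter windows of this length, 11.2% held a RUNX match, 5.48% an AP-1 match, 7.8% a GATA match and 5.49% a STAT match. A match describes letters and is not a binding site.

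Of the 32 gene lists described here, granzymes and perforin had the highest median response in tumor MC. The lists were chosen with earlier results of these data known, so that such ranks only describe them. Over all clusters 0.353% were called positive and 0.452% negative, and list counts here and below are to be set beside these shares. Of 10 measured genes of granzymes and perforin, 3 were called with a positive interaction (Gzmb, Gzmf and Gzmg) and 0 with a negative one, and 9 had a positive value. Their median interaction was 2.14, against −0.0092 over all clusters, with a median response of 1.0 in tumor and −0.32 in peritoneal MC. Gzmf, a granzyme of activated mouse lymphocytes, was at 3.07 and 3.56 in tumor placebo arrays, 6.24 and 6.99 in tumor DC101 arrays, 2.05 and 1.85 in peritoneum placebo arrays and 1.93 and 2.83 in peritoneum DC101 arrays. Tumor DC101 arrays stood above all others, with a response of 3.30 in tumor MC, 0.43 in peritoneal MC and an interaction of 2.87 (SE 0.50, adjusted p = 0.042). Gzmg had a response of 2.91 in tumor and −0.38 in peritoneal MC (interaction 3.29, adjusted p = 0.042). Gzmf kept its call in 1 of the 8 fits without 1 array and Gzmg in 0. Gzmd (3.02, adjusted p = 0.12), Gzma (4.10, adjusted p = 0.10) and Gzmc (1.41, adjusted p = 0.18) did not pass, and Gzmk, Gzmm and Gzmn lay between −0.22 and 0.15. Gzmd, Gzmf and Gzmg are near-identical copies whose probes may read each other, so that their values are uncertain one by one.

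The granule proteases of MC, by contrast, gave 1 call among 12 measured genes, which was Mcpt8. Their median interaction was 0.34. Carboxypeptidase A3 (Cpa3) had 0.34 (95% interval −0.31 to 0.98), the chymase Cma1 0.21 (−0.48 to 0.90), Mcpt4 0.16 (−0.53 to 0.85) and the tryptase Tpsb2 0.04 (−0.61 to 0.68). These 4 intervals lay within 1 in either direction. Mcpt1, a protease of mucosal MC, was at 9.60 and 9.20 against 10.95 and 10.75 in tumor MC and scattered from 1.5 to 3.94 in peritoneal MC, with an interaction of 2.03 that did not pass (adjusted p = 0.39). Ctsg, cathepsin G, had 0.51 (−0.19 to 1.21). Among 8 basophil markers, Mcpt8 and Itga2 were called in opposite directions and 6 were not called, among them Prss34 (0.25) and Cd200r3 (0.45), and the list median was 0.12.

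The 5 clusters with the larger response in tumor MC were Gzmf, Gzmg and Nop56 with a positive interaction and Adgre1 and Klk1b24 with a negative one. Nop56, a core protein of the box C/D particles that modify ribosomal RNA, was at 4.36 and 4.35 against 5.41 and 5.32 in tumor MC and at 4.70 and 4.28 against 3.55 and 3.50 in peritoneal MC (placebo against DC101). All placebo arrays lay between the DC101 arrays of both compartments. Its response was 1.01 in tumor and −0.97 in peritoneal MC, and the interaction was 1.98 (SE 0.29, adjusted p = 0.027). Both sizes (SE 0.21 each) were too close to rank, and only the peritoneal response passed (adjusted p = 0.033). Adgre1, an adhesion receptor used as a macrophage marker, was at 6.94 and 7.55 against 6.19 and 6.26 in tumor MC. In peritoneal MC it was at 9.37 and 9.40 against 10.29 and 10.11, with an interaction of −1.83 (adjusted p = 0.048). Its responses of −1.02 in tumor and 0.82 in peritoneal MC (SE 0.23 each) were also too close to rank by size, and neither passed. Klk1b24, a kallikrein that lies outside the naming rule because of its low values, was between 1.29 and 3.19 in all arrays, with an interaction of −2.59 (adjusted p = 0.012).

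Other genes of ribosome production were picked out after their values had been seen, and so give only a description. Myc, which drives ribosome production and growth, had an interaction of 1.96 with values of 8.01 and 7.94 against 8.69 and 8.24 in tumor MC and 8.38 and 8.45 against 7.21 and 6.69 in peritoneal MC. The nucleolar GTPase Gnl3 had 1.55, the RNase P subunit Rpp38 2.0, the snoRNA genes Snora7a and Snord87 2.41 and 1.97, and the snoRNA host gene Snhg12 1.90. All 6 fell in peritoneal MC (−1.29 to −1.85) and were higher with DC101 in tumor MC by 0.26 to 0.66, which did not pass. Of the 15 measured cytosolic ribosomal protein genes 0 were called, with a median interaction of 0.31.

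Most negative interactions were rises in peritoneal MC that tumor MC did not share. Ccl8, a chemokine that recruits monocytes and other leukocytes, was at 2.11 and 2.04 in peritoneum placebo arrays and at 10.72 and 11.18 in peritoneum DC101 arrays. In tumor MC it was at 7.52 and 8.16 with placebo and 7.90 and 7.36 with DC101, overlapping. Tumor MC thus lay between the extremes of peritoneal MC in either treatment. The interaction of −9.09 (SE 0.41, 95% interval −10.01 to −8.16, adjusted p = 9.7e-05) was the largest in size of all clusters called. Among 26 measured chemokine ligands, Ccl8 was called negative and Xcl1 positive. Its neighbours in function Ccl7 (−2.17, adjusted p = 0.057) and Ccl2 (1.35, adjusted p = 0.063), both monocyte attractants, did not pass.

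The list named alternative activation, after a macrophage program driven by interleukin-4 and interleukin-13, had the lowest median interaction of the 32 described. Its members were chosen with earlier results of these data known, so that this rank is only a description. Whether they followed these interleukins here was not tested. Of 14 measured, 7 were called negative (Clec4g, Mgl2, Folr2, Cd163, Lyve1, Mrc1 and Chil3) and 0 positive, with a median interaction of −3.52 and a median response of −0.21 in tumor and 2.79 in peritoneal MC. Mgl2, a galactose-binding lectin, was at 4.55 and 4.49 in peritoneum placebo and 8.91 and 8.60 in peritoneum DC101 arrays, and at 4.03 and 3.20 against 3.28 and 3.35 in tumor MC (interaction −4.53, SE 0.39, adjusted p = 0.0039). Cd163, the hemoglobin scavenger receptor, was at 5.16 and 5.30 against 8.62 and 9.85 in peritoneal MC and at 4.39 and 4.15 against 4.10 and 3.97 in tumor MC (interaction −4.24, adjusted p = 0.011). For both genes the peritoneum DC101 arrays stood above all other arrays.

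Lyve1, a hyaluronan receptor, and Chil3, a chitinase-like lectin, were higher with DC101 in both compartments but by unequal amounts. Chil3 was at 6.72 and 6.78 against 11.58 and 11.45 in peritoneal MC, a response of 4.77, and at 3.96 and 4.29 against 6.04 and 4.90 in tumor MC, a response of 1.34 that did not pass. Its interaction was −3.43 (SE 0.47, adjusted p = 0.021). Lyve1 had responses of 4.71 in peritoneal and 1.0 in tumor MC (interaction −3.70, adjusted p = 0.011). The mannose receptor Mrc1 ran the other way in tumor MC, with a response of −0.92 there against 2.76 in peritoneal MC (interaction −3.68, adjusted p = 0.012). Retnla, another gene of the list, was at 5.01 and 7.77 against 8.63 and 8.29 in tumor MC. In peritoneal MC it was at 11.03 and 10.91 against 11.32 and 11.13. Its 2 tumor placebo arrays were thus far apart, and the interaction (1.81) did not pass (adjusted p = 0.48). Arg1, arginase 1, had −1.22 (adjusted p = 0.32).

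Part of the macrophage markers moved with these genes. In peritoneal MC 4 of 12 measured rose and 2 fell, against 599 and 506 of all 24111 clusters. Of 12 measured macrophage markers 4 were called negative (Cd163, Mrc1, Maf and Adgre1, of which 2 also belong to alternative activation) and 0 positive, with a median of −1.41. Csf1r, the receptor of the macrophage growth factor (−1.86, adjusted p = 0.069), and C1qa (−1.54, adjusted p = 0.10) did not pass, and Msr1 (1.39) and Fcgr1 (2.48, adjusted p = 0.060) had positive values. The mean of the list per array was 7.76 and 7.42 against 8.19 and 8.75 in peritoneal MC and 6.08 and 6.39 against 5.73 and 5.85 in tumor MC. Of 7 markers of large peritoneal macrophages only Marco, a scavenger receptor, was called, and in the opposite direction (3.57, adjusted p = 0.030), with list means of 8.50 and 8.38 against 7.76 and 7.48 in peritoneal MC. Their defining transcription factor Gata6 had 0.33 (−0.65 to 1.31). The macrophage share of these cells and its part in the negative interactions was not tested.

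Of 6 measured eosinophil markers, Siglecf and Ccr3 were called negative. Siglecf, a sialic acid-binding receptor, was at 3.46 and 4.18 against 7.65 and 7.02 in peritoneal MC and at 4.38 and 3.84 against 3.39 and 4.35 in tumor MC (interaction −3.75, adjusted p = 0.027). Ccr3, the eotaxin receptor, had −3.61 (adjusted p = 0.011). The granule protein genes that define eosinophils, Epx, Prg2 and Prg3, lay between 1.59 and 3.53 in all arrays, near or below the median cluster. In peritoneal MC 3 of the 6 markers rose, against 599 of all 24111 clusters. They were Siglecf, Ccr3 and a granule protein gene at these low values. Il5ra was at 5.96 and 5.80 against 6.12 and 5.77 in peritoneal MC.

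Secreted factors were also among the negative interactions. Gas6, a ligand of the receptors AXL and MERTK, was at 4.10 and 3.52 against 7.02 and 8.83 in peritoneal MC and at 4.84 and 4.63 against 4.14 and 4.24 in tumor MC (interaction −4.66, SE 0.69, adjusted p = 0.027). Pdgfc, a platelet-derived growth factor, was at 6.45 and 6.91 against 6.48 and 6.18 in tumor MC, while peritoneal MC went from 2.96 and 3.14 to 6.21 and 7.80, so that 1 peritoneum DC101 array lay within the range of tumor MC and the other above it (interaction −4.31, adjusted p = 0.025). Tslp, a cytokine that promotes type 2 immunity, was at 2.30 and 2.55 against 6.52 and 7.71 in peritoneal MC and between 2.33 and 3.12 in tumor MC (interaction −4.29, adjusted p = 0.014). Gas6 and Pdgfc kept their call in 2 of the 8 fits without 1 array, and Tslp in 3. Tslp was 1 of 23 measured cytokine genes and the only one called.

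Of 17 measured angiogenic factors and receptors, Hgf, hepatocyte growth factor, was the only one called. It was at 5.63 and 5.53 against 4.76 and 5.32 in tumor MC and at 4.78 and 4.82 against 6.33 and 6.04 in peritoneal MC, so that the compartments changed order with DC101 (interaction −1.93, SE 0.33, adjusted p = 0.042, called in 0 of the 8 fits without 1 array). Vegfa, the ligand of the blocked receptor, was at 9.06 and 9.25 against 9.26 and 9.18 in tumor MC and 5.47 and 5.63 against 5.82 and 5.09 in peritoneal MC, with an interaction of 0.15 (−0.67 to 0.97). The receptor gene itself, Kdr, lay between 1.96 and 3.03 in all arrays (interaction 0.21, −0.86 to 1.28). Flt1 (1.51, adjusted p = 0.12) and Angpt1 (1.47, adjusted p = 0.081) did not pass. Fgf1, Fgf2 and Csf2 had −0.13, 0.40 and 0.31, none of which passed.

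Of 20 measured matrix proteases and inhibitors, Mmp9, a gelatinase, was the only one called. It was at 5.61 and 6.09 against 8.20 and 7.93 in peritoneal MC and at 4.92 and 5.34 against 4.95 and 4.62 in tumor MC (interaction −2.56, SE 0.36, adjusted p = 0.023, called in 2 of the 8 fits). The 13 cathepsins had 0 calls and a median of −0.63, with Ctsb (−1.65) and Ctsl (−1.54) lowest. Among clusters with 1 symbol, the largest negative interactions beside Ccl8 were those of Chp2, a calcium-binding regulator of sodium-proton exchange (−6.27, adjusted p = 0.00014), and Fxyd2, a subunit of the sodium pump (−5.07, adjusted p = 0.032). Cluster 17507221, which the annotation gives 2 symbols, lay between them (−6.12, adjusted p = 0.00078). Chp2 lay between 2.21 and 2.48 in the 6 arrays other than peritoneum DC101, where it was at 8.28 and 8.79. The size of its rise is therefore uncertain.

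Immediate early genes, which cells switch on within minutes of stimulation or handling, were partly called. Of 17 measured, 7 rose in peritoneal MC, against 599 of all 24111 clusters. Fosb, Fos, Junb and Dusp1 had a negative interaction that was called, with 0 positive calls and a median of −0.72. Fosb, an AP-1 subunit, was at 10.37 and 10.26 against 10.28 and 10.49 in tumor MC and at 6.43 and 6.77 against 8.79 and 8.87 in peritoneal MC (interaction −2.16, SE 0.29, adjusted p = 0.019). Fos was at 9.38 and 9.48 against 9.54 and 9.29 in tumor MC and at 7.76 and 7.12 against 9.53 and 9.51 in peritoneal MC (interaction −2.10, adjusted p = 0.037). The 4 genes thus showed little difference between treatments in tumor MC, with responses from −0.22 to 0.26. Nr4a1 (0.51) and Atf3 (−0.16), of the same class, did not pass. The list mean per array was 9.48, 9.25, 9.33 and 9.43 in tumor MC and 7.19 and 7.09 against 8.03 and 7.93 in peritoneal MC, and the part of cell isolation in this was not tested.

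Of the 5 miRNA genes called, Mir20a, Mir27a and Mir290a had a negative and Mir5104 and Mir5112 a positive interaction. The array reads the hairpin gene and does not separate its arms. Mir27a, from a cluster expressed in myeloid cells, was at 6.81 and 6.57 against 7.23 and 7.13 in tumor MC and at 4.79 and 4.74 against 7.19 and 7.06 in peritoneal MC (interaction −1.87, SE 0.27, adjusted p = 0.025). With DC101 the compartments overlapped, whereas with placebo they stood apart. Mir20a, of a growth-promoting miRNA cluster, had an interaction of −2.79 (adjusted p = 0.037). It was at 3.38 and 3.82 against 3.32 and 3.70 in tumor MC and at 2.14 and 1.29 against 4.17 and 4.67 in peritoneal MC. Its peritoneum placebo arrays lay below the median cluster (3.48), so that the size of its rise is uncertain. The mature forms of Mir27a and Mir20a are shown because the seed, bases 2 to 8 in capitals, sets which transcripts a miRNA can pair with. They lie on the plus strand of GRCm38.p6 at chr8:84208727-84208747 (miR-27a-3p), chr8:84208685-84208706 (miR-27a-5p), chr14:115044183-115044205 (miR-20a-5p) and chr14:115044219-115044240 (miR-20a-3p).
mmu-miR-27a-3p: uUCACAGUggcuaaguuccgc
mmu-miR-27a-5p: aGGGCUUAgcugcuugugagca
mmu-miR-20a-5p: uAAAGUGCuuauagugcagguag
mmu-miR-20a-3p: aCUGCAUUacgagcacuuaaag
The 4 seeds differ from each other.

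Most positive interactions were falls in peritoneal MC. Fabp6, a bile acid-binding protein of the ileum, was at 8.61 and 8.18 in peritoneum placebo arrays and at 2.65 and 2.43 in peritoneum DC101 arrays, and between 1.59 and 2.30 in tumor MC (interaction 5.35, SE 0.32, adjusted p = 0.00038). AF067061 had the same form, with 7.28 and 8.58 against 2.11 and 1.90 in peritoneal MC and 1.85 to 2.72 in tumor MC (interaction 6.08, SE 0.61, adjusted p = 0.0067). Peritoneum placebo arrays stood alone above the others for both genes, and so did 1810046K07Rik (4.03, adjusted p = 0.0066). Cryab, a small heat shock protein, was at 10.55 and 10.60 against 10.76 and 10.77 in tumor MC and at 8.37 and 8.69 against 4.34 and 4.76 in peritoneal MC (interaction 4.18, SE 0.31, adjusted p = 0.0012). It was the only one of 11 heat shock genes called. Ifi205, an interferon-inducible gene, was at 8.20 and 8.85 against 9.25 and 9.14 in tumor MC and at 8.45 and 8.41 against 6.12 and 6.20 in peritoneal MC (interaction 2.94, adjusted p = 0.011). Dcn, which encodes the matrix proteoglycan decorin, fell in peritoneal MC from 7.28 and 7.35 to 5.57 and 5.04 and lay between 10.77 and 10.84 in tumor MC (interaction 1.99, adjusted p = 0.033), as the 1 fibroblast marker called of 10.

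Lymphocyte genes were part of this group. Xcl1, a chemokine of T and NK cells that attracts dendritic cells, was at 9.34 and 9.14 against 4.89 and 4.42 in peritoneal MC and at 7.59 and 8.36 against 7.53 and 7.41 in tumor MC (interaction 4.08, SE 0.40, adjusted p = 0.0066). Ncr1, the NK cell receptor NKp46, was at 5.20 and 4.90 against 2.54 and 2.38 in peritoneal MC and at 3.30 and 3.28 against 3.51 and 4.31 in tumor MC (interaction 3.22, adjusted p = 0.012). Il2rb, a chain of the interleukin-2 receptor, had 2.74 (adjusted p = 0.048). All 12 measured T and NK cell markers had a positive interaction, but Ncr1 and Il2rb were the 2 called. The list median was 1.95, with a median response of −0.04 in tumor and −1.96 in peritoneal MC. In peritoneal MC 8 of the 12 fell, against 506 of all 24111 clusters. The list mean per array was 5.70 and 5.71 against 4.01 and 3.71 in peritoneal MC and 4.19 and 4.98 against 4.52 and 4.69 in tumor MC. It moved in the same arrays and direction as peritoneal Gzmb and Xcl1, and the part of T and NK cells in these interactions was not tested.

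B cell and mesothelial genes had smaller positive values. Of 10 measured B cell markers 0 were called and 9 were positive, with a median of 0.84, and Cd22 (1.45, adjusted p = 0.12) and Cd79b (0.88, adjusted p = 0.36) were examples. Their list mean was 7.96 and 7.81 against 7.04 and 6.46 in peritoneal MC and 2.87 to 3.45 in tumor MC. An immunoglobulin light chain V segment was called, at 9.85 and 9.95 against 6.63 and 7.06 in peritoneal MC and 2.74 to 3.74 in tumor MC (interaction 3.37, adjusted p = 0.017). Of 7 mesothelial markers Upk1b was called (2.04, adjusted p = 0.032), with a list median of 1.77 and peritoneal list means of 4.48 and 4.43 against 3.22 and 2.83. In peritoneal MC 4 of the 10 B cell and 4 of the 7 mesothelial markers fell, against 506 of all 24111 clusters. The share of these cells among sorted peritoneal cells was not tested.

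All 21 measured cell cycle genes had a positive interaction, with a median of 0.80 and 11 at an unadjusted p under 0.05, but 0 were called. Over all clusters 13.1% had an interaction with such a p. Mcm5, a replication helicase subunit, had 1.54 (adjusted p = 0.096), and the kinetochore motor Cenpe was at 6.85 and 6.98 against 6.79 and 6.70 in tumor MC and at 5.37 and 5.58 against 4.14 and 3.67 in peritoneal MC (1.40, adjusted p = 0.083). The list had a median response of −0.10 in tumor and −0.99 in peritoneal MC, where 9 of the 21 fell, against 506 of all 24111 clusters. For the 19 measured genes of the type I interferon response 0 were called and 17 were positive, with a median response of 0.54 in tumor MC, −0.07 in peritoneal MC and a median interaction of 0.50. Stat2, a signal transducer of the interferon receptor, was at 5.70 and 5.97 against 6.99 and 6.70 in tumor MC and at 6.15 and 6.36 against 6.17 and 6.42 in peritoneal MC (0.97, adjusted p = 0.21). Bst2, tetherin, had 1.13 (adjusted p = 0.25).

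**Figure D3:**
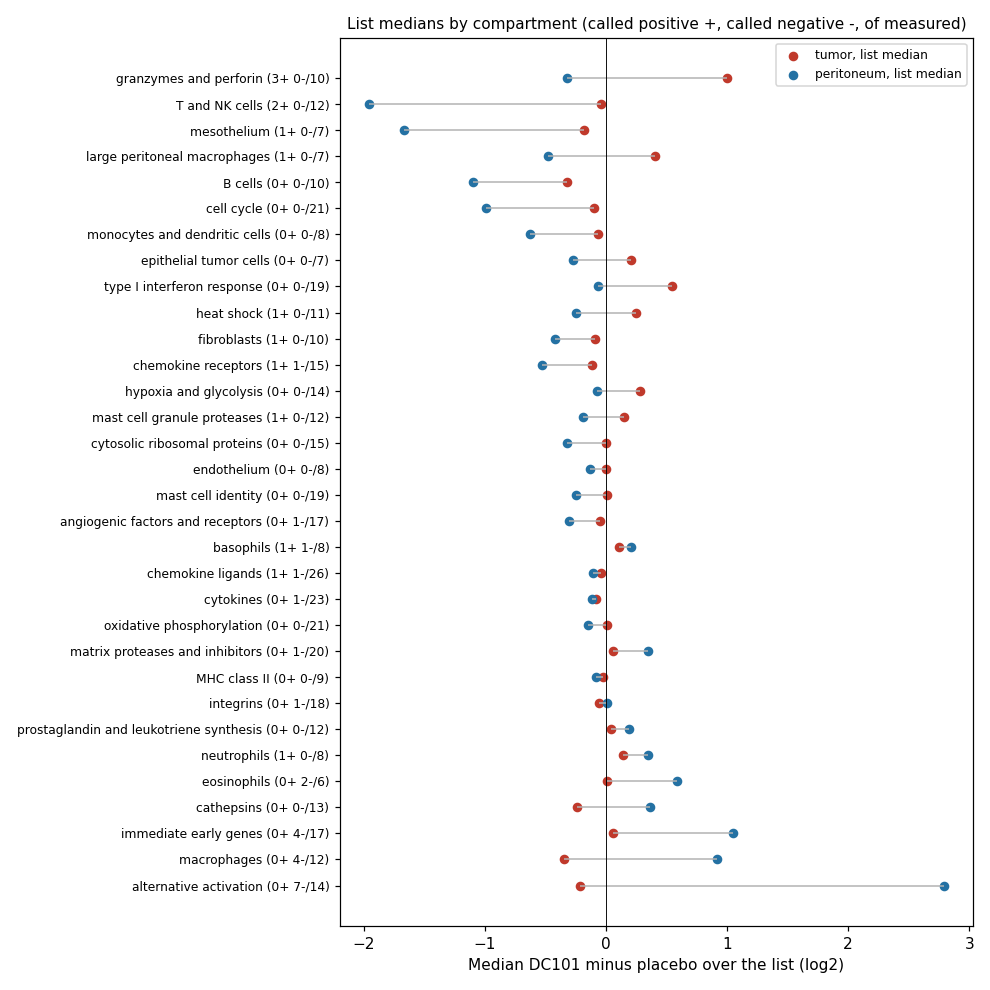
Median response to DC101 (x axis, log2 difference between DC101 and placebo) in tumor MC (red) and peritoneal MC (blue) over the members of 32 gene lists, with the clusters called for the interaction in each direction and the number measured in brackets. Peritoneal medians lie between −1.96 (T and NK cells) and 2.79 (alternative activation), and granzymes and perforin have a tumor median of 1.0.

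MC identity genes gave 0 calls. Of 19 measured, 14 had a positive and 5 a negative interaction, with a median of 0.21. An unadjusted p under 0.05 was reached by 2, against 13.1% of all clusters. Kit, the receptor used in the sort, was at 10.20 and 9.26 against 9.36 and 10.11 in tumor MC and at 9.80 and 9.52 against 8.96 and 9.03 in peritoneal MC (0.68, −0.42 to 1.78). The other sort markers were Fcer1a (0.26, −0.47 to 1.0), Itgam, which encodes CD11b (−0.74, −1.46 to −0.02, adjusted p = 0.37), and Ptprc, which encodes CD45 (−0.11, −0.94 to 0.72). The largest value was that of Tph1, an enzyme of serotonin synthesis, at 9.65 and 8.79 against 9.23 and 9.95 in tumor MC and 9.59 and 9.31 against 7.47 and 8.09 in peritoneal MC (2.04, SE 0.51, adjusted p = 0.12). The interval lay within 1 in either direction for 6 of the 19, so a difference of that size cannot be set aside for the others. The list mean was 9.62 and 8.82 in tumor placebo arrays and 8.80 and 9.43 in tumor DC101 arrays. This gap between replicates of the same treatment is larger than that between the treatment means. In peritoneal MC the list mean was 9.23 and 8.99 with placebo and 8.59 and 8.80 with DC101, so that both DC101 arrays lay lower. The median response of the list there was −0.24, and 1 of the 19 genes fell, against 506 of all 24111 clusters.

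**Figure D4:**
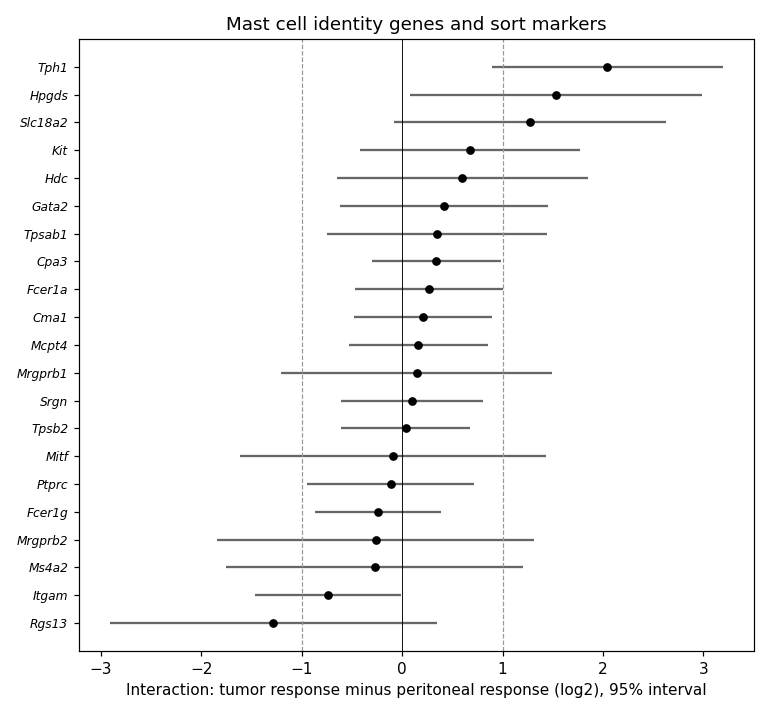
Interaction (x axis, log2, tumor response minus peritoneal response) with its 95% interval for 19 MC identity genes and the sort markers Itgam and Ptprc, where dashed lines mark a difference of 1 in either direction. Tph1 has the largest value (2.04), and none of these genes was called.

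Over all clusters, the 95% interval of the interaction lay within 1 in either direction for 8554 (35.5%), and the median distance from the value to either end was 0.77. Oxidative phosphorylation was the list in which this held for the most members, 14 of 21, with a median interaction of 0.05 and 0 calls. For the remaining clusters without a call, equal responses were not shown.

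Some genes had responses of the same sign in both compartments. A called mean does not show that each compartment responded, and 0 clusters passed for the tumor response. The mean of both responses was called for 156 clusters (95 higher and 61 lower with DC101, 0.647%), but 81 of these were also called for the interaction, and 15 had an interaction p above 0.05. Among the 15, Ms4a8a, a membrane protein of myeloid cells, was at 2.84 and 2.40 against 3.75 and 3.74 in tumor MC and at 8.41 and 8.72 against 9.41 and 9.97 in peritoneal MC, a mean response of 1.12 (adjusted p = 0.037) with an interaction of 0.01 (−0.81 to 0.82). Retnlg, a resistin-like gene of neutrophils, had a mean response of 1.67 (adjusted p = 0.045) and an interaction of −0.82 (−2.11 to 0.47). Gpr84, a receptor for medium-chain fatty acids on myeloid cells, was at 5.27 and 5.32 against 4.55 and 4.60 in tumor MC and at 3.71 and 3.72 against 2.84 and 2.81 in peritoneal MC, a mean response of −0.80 (adjusted p = 0.036) with an interaction of 0.17 (−0.40 to 0.75). Snn, stannin, had −0.99 (adjusted p = 0.037) with an interaction of 0.05. DC101 arrays of Ms4a8a and Gpr84 did not overlap placebo arrays in either compartment.

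With all arrays and in each of the 8 fits that left out 1 array, 18 clusters were called, 8 positive and 10 negative. The 8 were AF067061, Fabp6, Gzmb, Mcpt8, Cryab, Xcl1, 1810046K07Rik and the carbonic anhydrase gene Car1 (3.51). The 9 negative ones with 1 symbol were Ccl8, Chp2, Clec4g, Fcrls, Mgl2, Rflnb (−4.12), Reps2 (−4.02), Cbr2 (−3.74) and Slc46a1 (−3.36). Car1, Cbr2, which encodes carbonyl reductase 2, and Slc46a1, a folate transporter, are outside the naming rule and were picked for this count. Reps2, an adaptor of endocytosis, was at 4.63 and 3.87 against 3.09 and 3.89 in tumor MC and at 3.95 and 4.17 against 7.36 and 7.28 in peritoneal MC. Of the 194 clusters, 27 were called in at least 6 of these 8 fits and 47 in none.

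**Figure D5:**
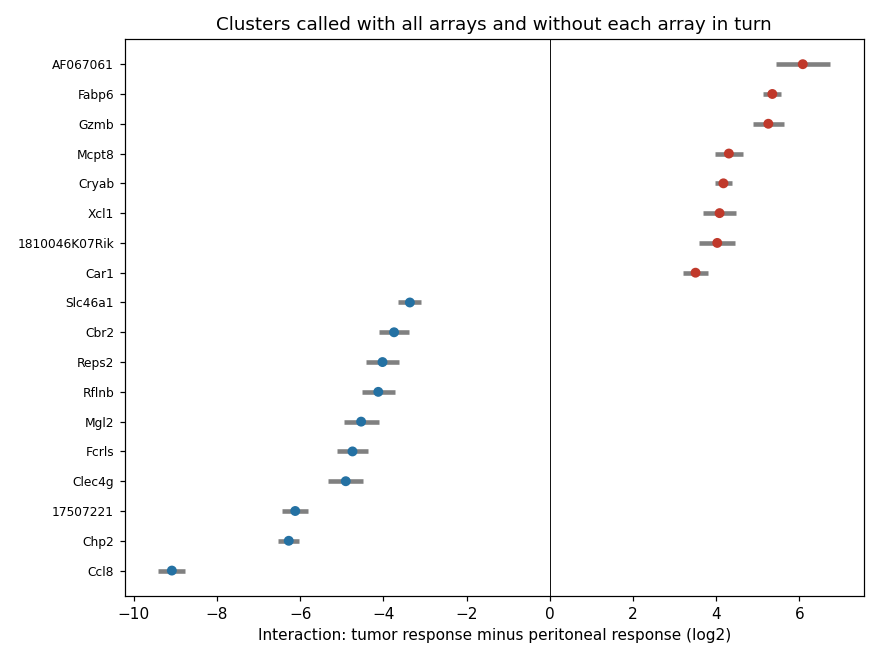
Interaction (x axis, log2) of the 18 clusters called with all 8 arrays and without each array in turn, where points are values from all arrays and grey bars span the lowest and highest value of the 8 fits. Values run from −9.09 for Ccl8 to 6.08 for AF067061, and no bar reaches 0.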

How the data were processed

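RNA of FACS-sorted MC from tumors and peritoneal lavage was hybridized to single-colour Affymetrix mouse gene arrays, 2 per group in 4 groups. The deposited values are log2 expression per transcript cluster that the authors made with RMA, as named in the submitters' processing notes. RMA corrects background, normalizes between arrays and summarizes probes, which removes any change shared by all genes. The version, the options and the genome build of this step were not given in the sources used here. Each of the 8 value columns was assigned through its sample's label.

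Differences were computed from the deposited log2 values with limma 3.58.1 in R 4.3.3 over 8 arrays, with 1 mean per group, 4 residual degrees of freedom and a prior of 4.93. The contrasts were the interaction, both responses and their mean, with Benjamini-Hochberg adjustment over 24111 clusters and a threshold of 0.05. Names came from the platform annotation. Of 24111 clusters 21508 had 1 symbol (21399 matched by gene identifier to the RefSeq table of GRCm38.p6), 566 several and 2037 none. Where a gene had several clusters (187 genes), the one with the highest mean was used. Coordinates and sequences are those of RefSeq in GRCm38.p6 and not of the arrays. Promoter windows were searched on both strands. The functions were tested on simulated data. Plots and sequence searches used Python 3.11.15 with matplotlib 3.10.9.

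The members, the 32 gene lists and the rule for named genes were chosen with earlier results of these data known. The rule took, among called clusters with 1 symbol, a mean above the median cluster and tumor array pairs apart from peritoneal ones, the 15 with the largest positive and negative interaction, up to 10 each way with the larger response in tumor MC, and up to 10 each way with opposite responses of at least 1 in size. It added up to 10 each way for the mean response with an interaction p above 0.05, genes that the study names from its arrays, the sort markers and up to 4 members of each list by the smallest p. List members named beyond these illustrate the spread of a list and were picked after their values were seen, as were the genes of ribosome production, Klk1b24, 17214892, Car1, Cbr2 and Slc46a1. Of the study's genes, those without a symbol of their own in the annotation are not reported by name.

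The alternatives were another prior, array weights, other normalization, filters on level or annotation, a stricter threshold, replicate numbers as blocks, and leaving out each array. The main model had no block, because the labels do not say that equal replicate numbers mark the same mouse. Same-numbered arrays did not deviate together, which does not settle this. The number of arrays limits the precision.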

Additional observations from a re-analysis of the deposited data

Results flagged for a closer look

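The responses of the compartments differed by limma's test of the difference itself for 194 transcript clusters. Those in which both responses were at least 1 in size and opposite, or in which the tumor response was the larger, are repeated here, and the other called genes are described above. With opposite responses, the interaction was 5.26 for Gzmb, 4.31 for Mcpt8, 2.74 for the cluster 17214892, 2.63 for Clnk, −4.74 for Fcrls, −3.88 for Itga2 and −2.69 for Abca9. With the larger response in tumor MC, it was 2.87 for Gzmf, 3.29 for Gzmg, 1.98 for Nop56, −1.83 for Adgre1 and −2.59 for Klk1b24. For Nop56 and Adgre1 the sizes in both compartments were too close to rank. The tumor response alone passed the adjusted test for none of these 12 clusters. Groups of 2 arrays are too small to test single arrays as outliers.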

How the results depend on the processing

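The 194 calls of the interaction kept their sign in all 17 settings compared that refit the contrast. Only other normalization could have changed a sign, because tumor and peritoneal array differences lay apart in all 194. The number of calls depended on the settings. It was 0 without moderation, 463 with an intensity trend, 346 when clusters below the median level were left out, 21 at an adjusted p under 0.01, and 22 to 187 when 1 array was left out. The share of positive interactions was 43.8% with all arrays and 23.9% (42 of 176) without replicate 2 of peritoneum DC101. With the replicate number as a block the count was 113, of which 104 were among the 194, and with a block for replicate number and treatment, as if tumor and lavage came from the same mouse, it was 124, of which 99 were among the 194. Same-numbered arrays correlated between −0.165 and 0.0172 in their deviations from group means. With 2 arrays a group, these values cannot show whether tumor and lavage shared a mouse. The numbers were not taken as pairs because the labels do not state it. With tumor numbers crossed, an alternative added after the data were seen, 145 clusters were called.

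For the tumor response 2 clusters were called without replicate 2 of tumor placebo, against 0 otherwise. For the peritoneal response the count of 1105 was 33 without moderation, 266 at an adjusted p under 0.01 and 311 to 906 when 1 array was left out. For the mean response the count of 156 was 4 without moderation, 361 with an intensity trend, 68 with the replicate block, 25 at an adjusted p under 0.01 and 25 to 182 when 1 array was left out. The cause of these differences was not tested beyond the fewer degrees of freedom or clusters that a setting leaves.

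Of the 55 called genes that the rule names or that were picked out for ribosome production, 0 changed sign in any setting. Other called genes that were picked after their values were seen are not among the 55. All 55 lost their call without moderation, 17 with the replicate block and 20 with the block for replicate number and treatment. Many also lost it when 1 array was left out. Each other setting lost 0 to 4. For the sign, only other normalization could have made a difference here too. Among genes described above, Il2rb, Adgre1, Abca9, Maf, Upk1b, Dcn, Gzmg, Junb, Fos, Hgf, Gnl3, Rpp38 and Snord87 lost their call with both blocks, Myc with the replicate block, and Itga2, Siglecf, Nop56, Dusp1 and Snhg12 with the other. Among genes that were not called, the interaction of Ptprc (−0.11) was 0.00040 with quantile normalization and −0.42 to 0.19 when 1 array was left out (0.016, 0.19 and 0.077 without replicate 1 of tumor placebo, tumor DC101 and peritoneum DC101), and that of Cldn4 was −1.83 to 0.29, the latter without replicate 1 of peritoneum DC101. Array values give no depth, and changes of genes below the median cluster are limited by background.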
